A study of Mus musculus with 24 samples.

Results

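Among 10687 binding sites of the nuclear receptor Rev-erbα called in mouse brain, 1145 (10.7%) lay away from gene starts, carried a border of Rev-erbα binding in liver and had no overlapping peak in fat. They were chosen on deposited peak and border lists by 3 criteria. The brain peak did not overlap any eWAT peak by 1 bp, its central base lay more than 1 kb from every start of a protein-coding transcript, and at least 1 liver ChIP-exo border lay within 100 bp of that base. Of 9981 brain peaks without an eWAT peak, 6085 were distal by this measure, and 18.8% of those (95% Wilson interval 17.9 to 19.8) carried a liver border. The presence of a border, the absence of an eWAT peak and the distance from starts therefore describe the sites and were not tested.

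The series holds 24 samples in 16 groups, of which 3 groups entered here, all from wild-type C57BL/6 mice (genotype C57BL/6J) sampled at zeitgeber time 10, counted from lights on. Rev-erbα was immunoprecipitated from the ventral tegmental area, a midbrain region rich in dopamine neurons, in 1 library. It was profiled in eWAT, a white fat depot, in 2 libraries, and in liver by ChIP-exo, in which exonuclease trims the bound DNA up to the protein, in 2 libraries. Each group has a single deposited list, so no spread between replicates could be computed, and every test below runs over sites of these lists and does not speak for other animals. Shares of sites were compared between sets by two-sided Fisher's exact tests, and their p-values, adjusted for the number of tests, are given as adjusted exact p. Read depth is not given, a brain sample pools many cell types, and fewer cells of a type cannot be told apart from weaker binding per cell. Tissue and assay cannot be told apart either, because brain and fat were profiled by ChIP-seq and liver borders by ChIP-exo.

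Rev-erbα is a heme-binding nuclear receptor and a repressor in the circadian clock. It recruits the NCoR corepressor with HDAC3, and its own abundance cycles through the day. It binds DNA either directly, at an AGGTCA half-site with an A/T-rich 5′ extension (the ROR response element) or at a spaced pair of such half-sites, or indirectly, through other factors that hold it at their own sites in a given tissue. The CLOCK and BMAL1 activators bind the canonical E-box, C/EBP factors are abundant in liver and fat, and CTCF shapes chromatin loops in most cells.

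The DNA at the sites is shown first for those with the receptor's own element. Of 273 sites that the naming rule allows and that had a plus-strand border and a minus-strand border 5 to 60 bp downstream of it, both within 100 bp of the centre, 6 held a ROR response element or a repeat of the half-site within 50 bp of the centre, and all 6 held the element. Over all the sites, with or without a pair, the element was at 1.66% and the repeat with 2 bases between cores at 0.349%. Each line gives the plus strand of mm9, 5′ to 3′, for the central base and 50 bp on either side. The fixed letters of the element are in capitals. Positions in or between genes refer to protein-coding genes, here and below. The windows are chr12:83956840-83956940 in an intron of Rgs6, chr11:79038225-79038325 between genes near Wsb1, chr8:119387365-119387465 between genes near 2310061C15Rik, chr15:31047197-31047297 between genes near Dap, chr4:139599967-139600067 in an intron and nearest to Klhdc7a, and chr8:123022920-123023020 in an intron and nearest to Gse1. 
Rgs6: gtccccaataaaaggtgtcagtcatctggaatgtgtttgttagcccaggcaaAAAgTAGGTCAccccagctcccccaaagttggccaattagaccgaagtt
Wsb1: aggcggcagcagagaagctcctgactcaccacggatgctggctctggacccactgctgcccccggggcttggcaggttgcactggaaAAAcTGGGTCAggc
2310061C15Rik: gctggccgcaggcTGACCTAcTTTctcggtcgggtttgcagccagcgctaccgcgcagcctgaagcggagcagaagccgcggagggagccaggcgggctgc
Dap: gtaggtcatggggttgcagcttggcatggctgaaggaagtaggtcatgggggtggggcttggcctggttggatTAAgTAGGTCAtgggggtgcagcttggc
Klhdc7a: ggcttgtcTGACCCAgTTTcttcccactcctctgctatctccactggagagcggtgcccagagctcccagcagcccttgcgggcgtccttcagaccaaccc
Gse1: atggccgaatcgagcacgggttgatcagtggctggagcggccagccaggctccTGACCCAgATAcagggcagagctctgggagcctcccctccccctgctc
The Rgs6 site had the highest brain score of them (120, rank 80 of the brain list). The Dap window held 3 copies of AGGTCA, the Rgs6 and 2310061C15Rik windows 1 each, and the other three windows carried the element with GGGTCA as its core and no AGGTCA. Elements that read TGACCTA or TGACCCA in the lines stand on the minus strand. For each window 1 border pair was noted, and it enclosed the element at Rgs6 and Gse1. At 2310061C15Rik the minus border of the pair fell within the element. At Wsb1, Dap and Klhdc7a the pair lay away from the element.

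Most paired sites had no such core: 221 of the 273 had neither AGGTCA nor GGGTCA within 50 bp of the centre. This lack was not particular to paired sites. Over all the sites, with or without a pair, 20.3% held AGGTCA or GGGTCA. At distal brain sites without a border the share was 15.3%. The 4 of the 221 with the highest brain scores are shown. Every searched motif is in capitals, because 2 of the 4 held none of the 20 motifs. They lie at chr2:167932418-167932518 (between genes, 25964 bp downstream of a start of Pard6b, which encodes a cell polarity protein), chr1:122012444-122012544 (an intron of Dbi, which encodes an acyl-CoA binding protein), chr1:88384055-88384155 (between genes, nearest to Rpl30-ps6) and chr7:38870149-38870249 (between genes, nearest to Ccne1, the cyclin E1 gene).
Pard6b: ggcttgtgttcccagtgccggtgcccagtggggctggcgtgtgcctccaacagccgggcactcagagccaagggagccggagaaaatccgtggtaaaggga
Dbi: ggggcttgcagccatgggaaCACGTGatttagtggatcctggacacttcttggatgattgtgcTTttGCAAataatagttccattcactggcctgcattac
Rpl30-ps6: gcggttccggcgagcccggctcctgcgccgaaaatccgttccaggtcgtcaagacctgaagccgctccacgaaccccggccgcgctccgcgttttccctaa
Ccne1: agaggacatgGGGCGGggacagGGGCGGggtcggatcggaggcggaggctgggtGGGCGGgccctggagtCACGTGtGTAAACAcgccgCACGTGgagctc
The Pard6b and Rpl30-ps6 windows held none of the motifs. The Dbi window held 1 canonical E-box and a C/EBP site on the minus strand. The Ccne1 window held 2 canonical E-boxes, 3 GC boxes and a forkhead site.

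Liver borders enclosed some E-boxes and C/EBP sites tightly, and 8 such windows, chosen after their values were seen, show the arrangement. In the first 4 the canonical E-box (capitals, bases 29 to 34) had a plus-strand border and a minus-strand border 10 to 15 bp from its middle on either side. They lie at chr8:107803130-107803191 nearest to Nol3, chr11:31738558-31738619 33588 bp upstream of Cpeb4 and chr1:186676254-186676315 5977 bp upstream of Mosc2. The last lies at chr16:31529855-31529916, 71634 bp downstream of a start of Bdh1, the gene of a ketone body dehydrogenase. These are all 4 such sites that the naming rule allows. Places in genes and distances to starts, for all 8 windows, are those of the site's central base. For Nol3 that base was in a coding exon and outside the printed window.
Nol3: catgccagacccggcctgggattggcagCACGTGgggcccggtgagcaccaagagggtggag
Cpeb4: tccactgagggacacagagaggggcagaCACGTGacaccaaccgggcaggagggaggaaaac
Mosc2: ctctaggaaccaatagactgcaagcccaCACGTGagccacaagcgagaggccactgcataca
Bdh1: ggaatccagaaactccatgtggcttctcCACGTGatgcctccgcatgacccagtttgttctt
Counted from the first base printed, the plus borders stood at base 19 near Nol3, Cpeb4 and Mosc2 and at base 21 near Bdh1, and the minus borders at bases 42, 45, 44 and 44 in that order. The borders were thus 23 to 26 bp apart, with the E-box between them. In the next 4, of 8 such sites, the same held for a C/EBP site (capitals, bases 29 to 36).
Tuba3a: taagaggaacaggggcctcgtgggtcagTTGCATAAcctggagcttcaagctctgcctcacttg
Ppp1r3g: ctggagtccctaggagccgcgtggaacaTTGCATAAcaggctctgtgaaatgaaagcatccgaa
Steap3: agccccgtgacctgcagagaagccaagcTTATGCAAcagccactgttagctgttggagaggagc
Ccdc141: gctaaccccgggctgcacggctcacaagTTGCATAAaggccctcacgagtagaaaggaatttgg
They lie at chr6:125221656-125221719 between genes near Tuba3a (an α-tubulin), chr13:36085962-36086025 in an intron and nearest to Ppp1r3g (a glycogen-targeting subunit of protein phosphatase), chr1:122144834-122144897 in an intron and nearest to Steap3 (a metalloreductase) and chr2:77010402-77010465 between genes near Ccdc141. The plus border stood at base 18 or 19 and the minus border at base 47 in all 4, so the borders were 28 or 29 bp apart. The Steap3 copy of the motif stands on the minus strand. Receptor cores were left in lower case in these windows. The Tuba3a window held GGGTCA between its borders. Outside their borders, the Bdh1 window held a ROR response element and the Steap3 window AGGTCA, both on the minus strand.

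The sites with a liver border were among the stronger distal brain sites. The peak score is the authors' own and has no stated unit. It ran from 18.2 to 174.5 at the 1145 sites, with quartiles of 21.8, 29.1 and 40. The 4940 distal brain peaks with neither a border nor an eWAT peak ran from 14.5 to 167.3, with a median of 25.5. The groups overlapped over nearly all of their range, yet 684 sites with a border (59.7%) scored above the median of the whole brain list against 33.1% of those without (odds ratio 2.99, 95% interval 2.62 to 3.42, adjusted exact p = 1.09e-59). From the lowest scores to the highest, the share of distal brain peaks carrying a border went from 10.7% of 522 peaks at 14.5 to 18.2, through 20.8% at 29.1, to 43.7% of 190 peaks at 61.8 to 98.2. In the top class, 101.8 to 174.5, 16 of 37 carried one (43.2%, interval 28.7 to 59.1). Scores rise in steps of 3.636, and the sites spanned 5 to 48 such steps with a median of 8, so a site of low score rests on few steps.

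**Figure D1:**
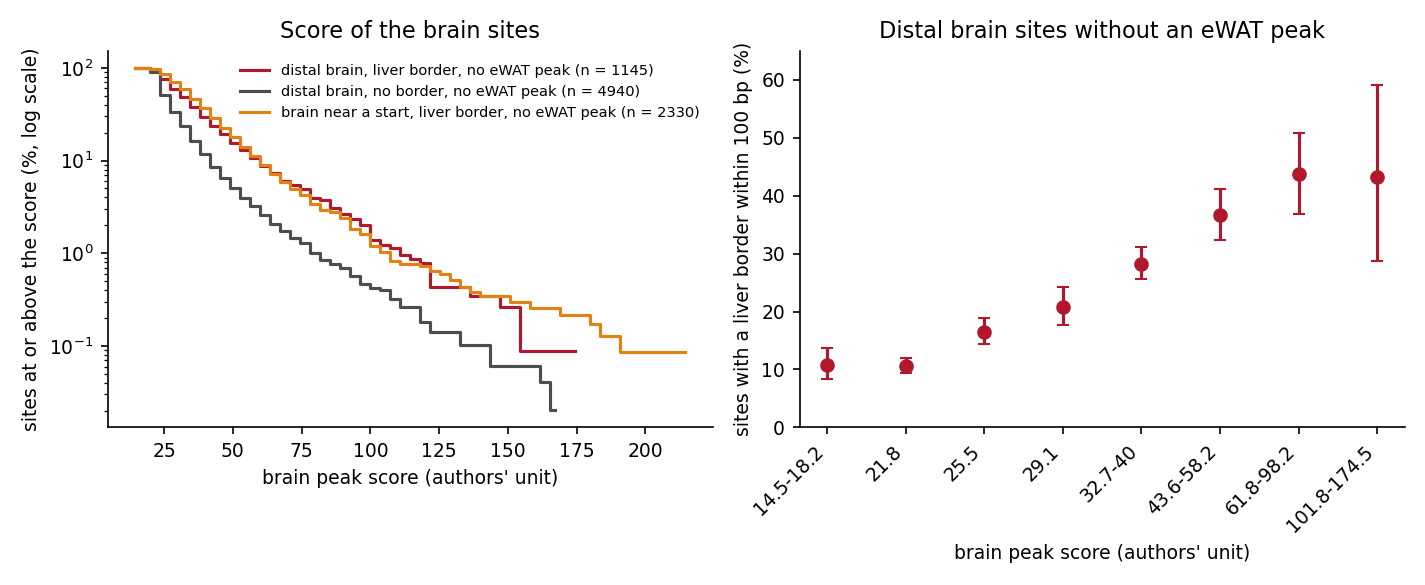
Left, share of sites (%, log scale) at or above each brain peak score for 3 sets of brain sites without an eWAT peak; the set near starts goes on beyond the drawn range to 345.4. Right, share of distal brain sites without an eWAT peak that carried a liver border within 100 bp, by score class, with 95% Wilson intervals. The share stands at 10.7% in the lowest class and 43.2% in the highest.

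Sites just inside and just outside each limit of the rule are given as a description. The 52 sites whose nearest border was 91 to 100 bp away had a median score of 25.5, as did the 34 peaks just outside, at 101 to 110 bp. Near starts, 72 sites lay 1001 to 1500 bp away (median score 32.7) and 168 brain peaks with a border lay just outside, at 501 to 1000 bp (29.1). At 38 sites an eWAT peak was centred within 1 kb without overlapping (median score 29.1), beside 289 distal brain peaks with a border that did overlap one (40). Borders gathered near the centres: 248 sites had one within 9 bp, and the median distance to the nearest was 26 bp.

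By position the sites were more often between protein-coding genes than the distal brain sites without a border. Only protein-coding gene models were used, so a site called intergenic may lie inside another gene. Of the 1145, 577 (50.4%) were intergenic, 519 (45.3%) intronic, 27 (2.36%) in a coding exon and 22 in another exon. The brain sites without a border were intergenic in 43.0% (odds ratio 1.35, 1.18 to 1.54) and intronic in 52.8% (0.743, 0.651 to 0.847), each with an adjusted exact p of 1.27e-05. With only borders of p at or below 0.01, the same odds ratios were 1.23 and 0.809 and no longer passed (adjusted exact p = 0.0792 each). Sites with only weaker borders were then in the comparison set. Coding exons held more of the sites than of 1999 distal eWAT peaks with a liver border and no brain peak (0.950%; odds ratio 2.52, 1.34 to 4.81, adjusted exact p = 0.00469). That call ended when sites within 5 kb of a start were left out (2.55, adjusted exact p = 0.0603) and when a border pair was required (1.97, adjusted exact p = 0.416). Against brain sites without a border the coding share did not pass (odds ratio 1.23, 0.768 to 1.92, adjusted exact p = 0.378).

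A minority of the sites looked like start regions in their base composition. Within 100 bp of the centre on either side, 220 sites (19.2%) had a GC content of at least 50% and a CpG frequency of at least 0.6 of that expected from their base content, the usual signature of a CpG island. The share was 4.55% at distal brain sites without a border (odds ratio 4.98, 4.06 to 6.11, adjusted exact p = 3.03e-52) and 2.65% at the distal eWAT sites with a border (odds ratio 8.73, 6.37 to 12.1, adjusted exact p = 3.46e-54). Start regions of genes that do not code for protein lay within 1 kb of 69 sites (6.03%), against 2.23% (odds ratio 2.82, 2.04 to 3.87, adjusted exact p = 9.20e-10) and 1.65% (3.82, 2.47 to 6.01, adjusted exact p = 2.90e-10). The criterion on distance used protein-coding starts only, so such starts could remain; 40 of the 69 were among the GC-rich sites.

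GC-rich sites differed from the other 925 in strength and place as a description. Their median score was 38.2 against 29.1, and the median distance to the nearest protein-coding start was 7618 bp against 15910 bp. GC-rich sites made up 35.1% of the 268 sites scoring 43.6 or more and 11.1% of the 287 scoring 21.8 or less. Over all 1145 sites the median GC content was 55.2%, between 50.7% at distal brain sites without a border and 64.7% at 2330 brain sites within 1 kb of a start that had a border and no eWAT peak. The distance to the nearest protein-coding start had quartiles of 5159, 14227 and 35286 bp.

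**Figure D2:**
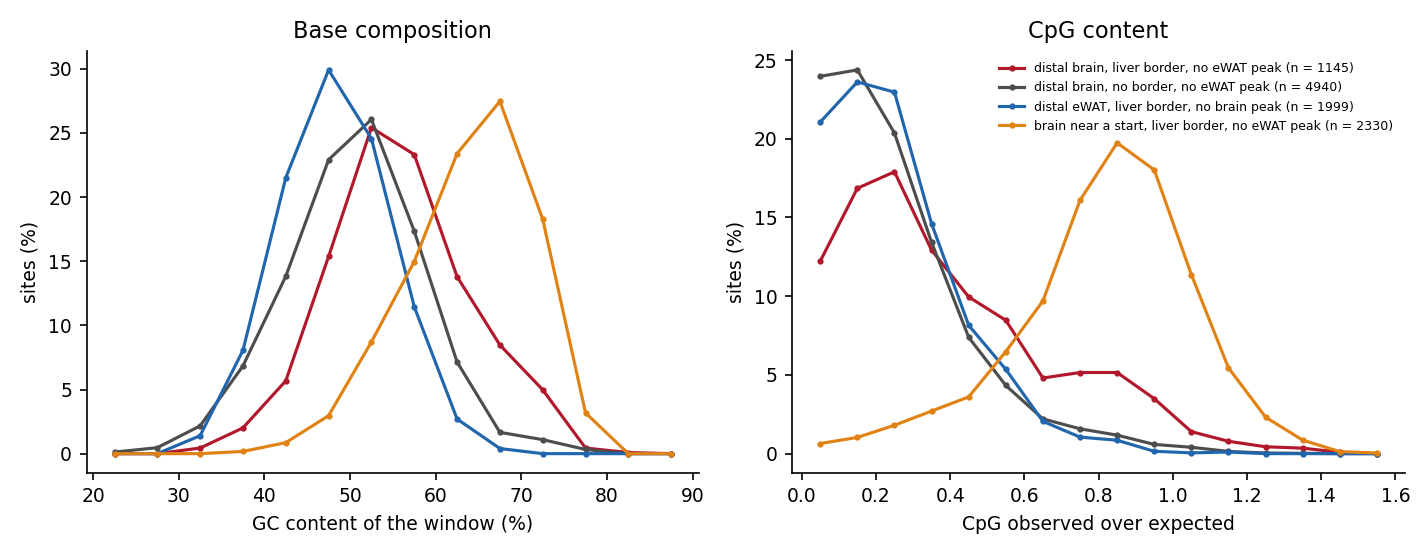
Share of sites (%) by GC content (left) and by CpG frequency observed over expected (right) within 100 bp of the peak centre, for the 4 sets of sites. The GC curve of the 1145 sites has its mode near that of other distal brain sites. It falls more slowly towards the range of start regions, where the median GC content was 64.7%. Their CpG curve is nearly level in the bins from 0.6 to 0.8 (4.80% to 5.15%).

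The sequence motifs began with the receptor's own. AGGTCA, searched on both strands within 50 bp of the centre like every motif here, was present at 132 sites (11.5%; 8.35% of all brain peaks). It was found in 6.46% of windows 1000 bp to the right of the same centres, and 122 sites had it at the centre alone against 64 in the flank alone (exact McNemar test, adjusted p = 1.02e-04). The ROR response element was present at 19 sites (1.66%; 1.49% of all brain peaks) against 3 flanks (exact McNemar test, adjusted p = 0.00244), and the repeat with 2 bases between cores at 4 sites against 0 flanks, which did not pass (exact McNemar test, adjusted p = 0.208). The repeat was at 0.349% of the sites and 0.271% of all brain peaks. AGGTCA and the element were thus more frequent than in the flanks, but few sites had any receptor motif: 140 sites (12.2%) held AGGTCA, the element or a repeat.

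Compared with the other sets, these motifs separated the sites weakly. The share with AGGTCA was 8.95% at distal brain sites without a border (odds ratio 1.33, 1.07 to 1.63, adjusted exact p = 0.0208) and 16.6% at the distal eWAT sites with one (0.657, 0.525 to 0.819, adjusted exact p = 4.04e-04). The first of these comparisons passed under 11 of 18 alternatives, and requiring a border pair gave an odds ratio of 0.993. Sites with unpaired borders were then in the comparison set. The ROR response element was at 1.80% and 2.20% of those sets, and neither comparison passed (odds ratios 0.920, adjusted exact p = 1, and 0.750, adjusted exact p = 0.560). At brain sites near starts it was at 0.172% (odds ratio 9.81, 3.25 to 39.7, adjusted exact p = 6.30e-06). With 1 mismatch allowed the element was at 8.03% of the sites and 9.23% of distal brain sites without a border.

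The canonical E-box, CACGTG, was more frequent at the sites than at brain sites without a border. It was present at 93 sites (8.12%, 6.68 to 9.85; 6.16% of all brain peaks), at 1.75% of flanks and at 2.39% of distal brain sites without a border. Against the flanks, 91 sites had it at the centre alone and 18 in the flank alone (exact McNemar test, adjusted p = 1.27e-11), and against the sites without a border the odds ratio was 3.61 (2.70 to 4.82, adjusted exact p = 1.51e-16). The distal eWAT sites with a border had it more often still, at 13.9% (odds ratio 0.550, 0.424 to 0.707, adjusted exact p = 6.30e-06), and so did the brain sites near starts, at 11.1% (0.710, 0.548 to 0.915, adjusted exact p = 0.0182). GC content moved with it: 34 of the 93 sites were GC-rich. Without GC-rich sites in either set, a comparison added after seeing the data, the shares were 6.38% and 2.01% against brain sites without a border (odds ratio 3.31, adjusted exact p = 5.79e-10). Among windows with a GC content under 50% the odds ratio was 1.77 and did not pass (adjusted exact p = 0.576).

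C/EBP sites (TTGCNNAA) separated the sites from those of fat. They were present at 69 sites (6.03%; 3.97% of all brain peaks), against 19.3% of the distal eWAT sites with a border (odds ratio 0.269, 0.203 to 0.353, adjusted exact p = 2.31e-25). The odds ratio stayed between 0.230 and 0.351 and passed under all 18 alternatives run. Against distal brain sites without a border (4.11%) the difference was small (1.50, 1.11 to 1.99, adjusted exact p = 0.0182) and passed under 13 of them. Against the flanks (3.93%) it did not pass (67 sites at the centre alone, 43 in the flank alone, exact McNemar test, adjusted p = 0.0557).

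CTCF and GC-box motifs were also more frequent than at brain sites without a border. The CTCF core was at 34 sites (2.97%; 1.12% of all brain peaks), at 1 flank (exact McNemar test, adjusted p = 1.05e-08) and at 1.11% of distal brain sites without a border (odds ratio 2.72, 1.71 to 4.27, adjusted exact p = 6.43e-05). It did not differ beyond the test's threshold from the eWAT sites with a border (2.25%; 1.33, adjusted exact p = 0.394). GC boxes (GGGCGG), bound by SP and KLF factors, were at 117 sites (10.2%; 15.1% of all brain peaks) against 4.05% (2.70, 2.11 to 3.44, adjusted exact p = 7.00e-14) and 1.80% of the eWAT sites (6.20, 4.20 to 9.35, adjusted exact p = 1.45e-23). Of the brain sites near starts, 35.6% held a GC box (0.206, 0.166 to 0.255, adjusted exact p = 9.19e-61). GC boxes were at 30.9% of the GC-rich sites and 5.30% of the others; without GC-rich sites the odds ratio against brain sites without a border was 1.76 (adjusted exact p = 0.00977).

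The D-box, bound by the clock-controlled PAR bZIP factors, was at 24 sites (2.10%; 1.27% of all brain peaks) against 0.437% of flanks (exact McNemar test, adjusted p = 0.00182). At distal brain sites without a border it was at 1.36%, which did not pass (adjusted exact p = 0.160). Direct repeats of the receptor core with 1 or 4 bases between, read by other nuclear receptors, were at 0 of the 1145 sites (upper Wilson bound 0.334%). Their shares over all brain peaks were 0.0655% and 0%, in that order. The CAGCTG E-box, bound by neuronal and other bHLH factors, was at 148 sites (12.9%; 8.94% of all brain peaks), against 10.1% of distal brain sites without a border (1.32, adjusted exact p = 0.0182) and 8.65% of eWAT sites (1.57, adjusted exact p = 6.44e-04). The first of these passed under 9 of 18 alternatives, and with only borders of p at or below 0.01 its odds ratio was 0.920. Sites with only weaker borders were then in the comparison set. The cAMP response element (TGACGTCA), bound by CREB, was at 10 sites (0.873%) and at 0.702% of all brain peaks. At distal brain sites without a border it was at 4 of 4940 (10.9, 3.13 to 47.6, adjusted exact p = 1.03e-04). Without GC-rich sites it was at 4 of 925 sites (0.432%) against 4 of 4715 (0.0848%). That odds ratio was 5.11 (0.951 to 27.5) and did not pass (adjusted exact p = 0.0857). In all, 8 of 20 motifs (40%) passed against brain sites without a border, all 8 higher at the sites. Against the eWAT sites 6 passed (30%), 3 higher and 3 lower. Against brain sites near starts 12 passed (60%), 8 higher and 4 lower, and against the flanks 9 passed (45%), all higher at the centre. Only the right flank was tested. The AP-1 site, 1 of the 9, was at 27 centres and 11 right flanks, but at 26 left flanks. A match says only that the letters are there: 589 sites (51.4%) held none of the 20, and 917 (80.1%) held neither a receptor motif nor a canonical E-box.

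**Figure D3:**
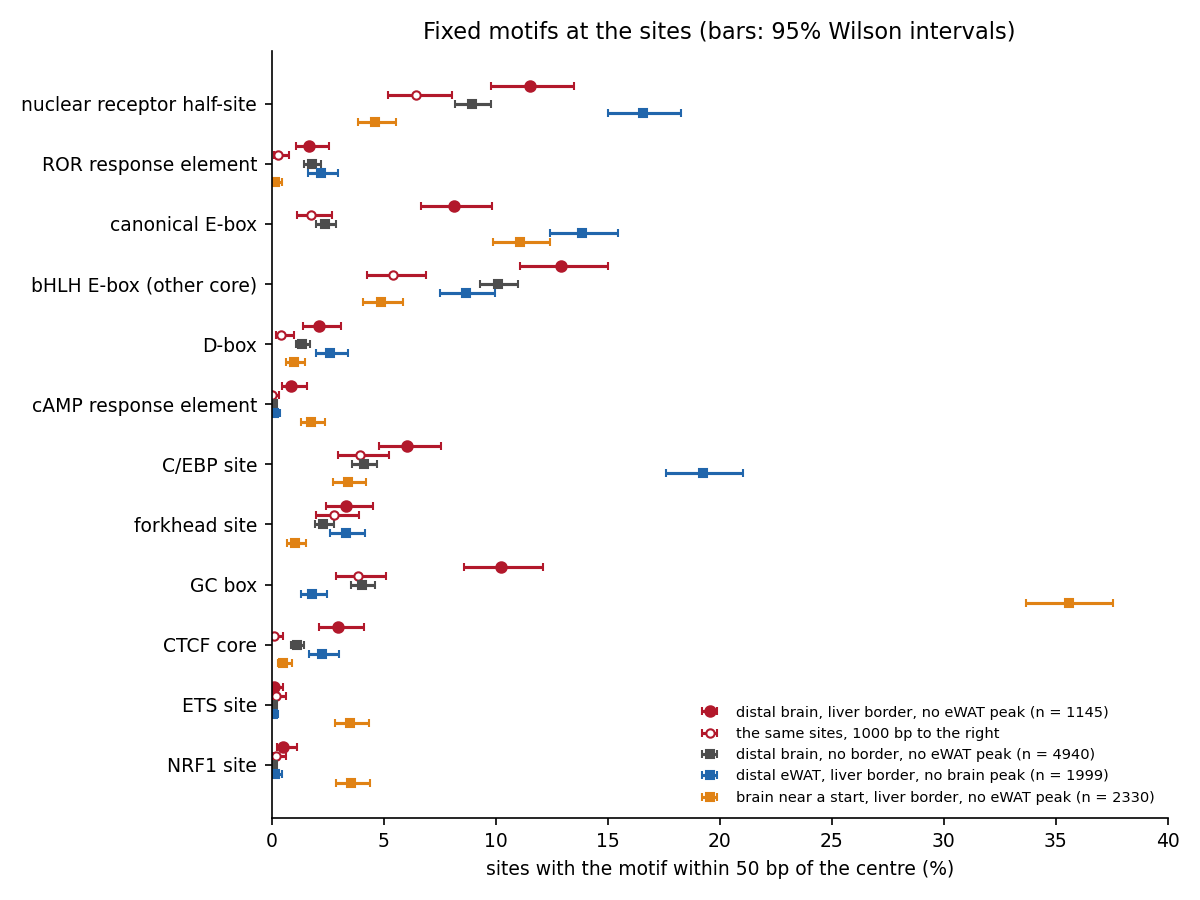
Share of sites (%) with each motif within 50 bp of the centre, with 95% Wilson intervals, in the 1145 sites, in windows 1000 bp to their right and in 3 other sets. The canonical E-box stood at 8.12% of the sites against 2.39% of distal brain sites without a border, and the C/EBP site at 6.03% against 19.3% of the eWAT sites.

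Liver borders gathered 10 to 15 bp from the middle of some motifs and not of others. A canonical E-box lay within 75 bp of the centre at 121 sites. On the strand that faces the motif, 27 plus-strand borders stood 10 to 15 bp to its left and 20 minus-strand borders 10 to 15 bp to its right, while the other strands had 4 and 2 borders there. At 43 of the 121 sites (35.5%) a facing border stood at that distance on at least 1 side, and at 4 on both. Around C/EBP sites, read along the motif, the same counts were 16 and 18 facing borders against 6 and 1, at 26 of 88 sites (29.5%).

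At the receptor's own half-site, facing borders at that distance were, over both sides, no more numerous than those on the other strands. Of 183 sites with AGGTCA within 75 bp, 11 (6.01%) had a facing border 10 to 15 bp away, with 3 and 8 facing borders against 9 and 7 on the other strands. For the GC box the share was 6.51% of 169 sites and for CAGCTG 7.88% of 203. The arrangement at E-boxes was not particular to these sites: facing borders stood at 37.0% of 338 E-boxes in the eWAT set and at 40.5% of 348 in the set near starts. For C/EBP sites the shares were 34.7% of 495 and 27.9% of 111. These shares are descriptions, since the borders chose the sites and 10 to 15 bp is where the E-box and C/EBP counts peak.

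**Figure D4:**
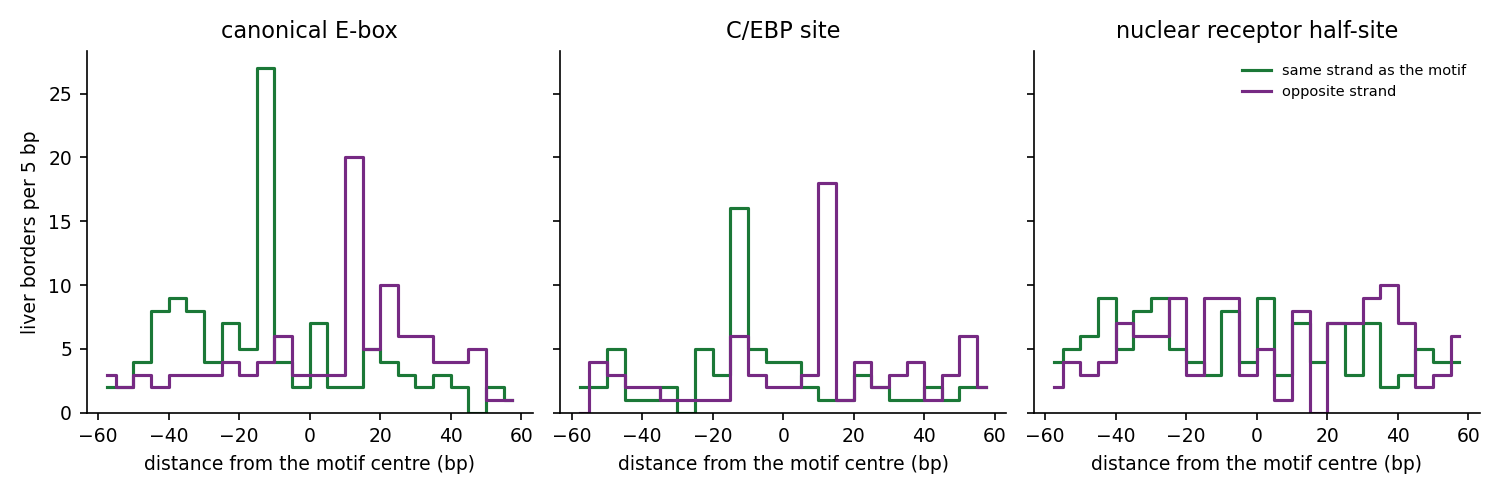
Number of liver borders per 5 bp by distance (bp) from the middle of the motif nearest to the peak centre, read along the motif, at the sites with a canonical E-box (121), a C/EBP site (88) or a half-site (183). Facing borders peak at 27 and 20 beside the E-box and at 16 and 18 beside the C/EBP site, and no bin exceeds 10 beside the half-site.

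In total 2324 borders lay within 100 bp of the 1145 centres. One border alone was present at 533 sites (46.6%), 2 at 288 (25.2%) and 3 or more at 324 (28.3%), with at most 7. Both strands were represented at 465 sites (40.6%). Plus-strand borders tended to the left of the centre (55.3% of 1176, median −9 bp) and minus-strand borders to the right (56.7% of 1148, median 13.5 bp). The strongest border signal at a site ran from 0.0991 to 15.1 with a median of 0.623, and 403 sites (35.2%) had a border with p at or below 0.01.

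Pairs of facing borders lay inside 296 sites (25.9%), with a median spacing of 28 bp over 394 pairs, against 29 bp over all 27061 liver pairs. The commonest spacing was 25 to 29 bp in both (15.7% and 17.7%). Sites of higher brain score had a pair more often: 19.5% of those at 18.2 to 21.8, 22.6% at 25.5 to 29.1, 27.0% at 32.7 to 40 and 35.1% at 43.6 or more. Over the same classes the median signal went from 0.535 to 0.764 and the share with a canonical E-box from 6.62% to 10.8%, while AGGTCA went from 12.5% to 10.4%. Across the 1145 sites the rank correlation of brain score and strongest border signal was weak (Spearman's rho 0.163, a description over sites that share their libraries).

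**Figure D5:**
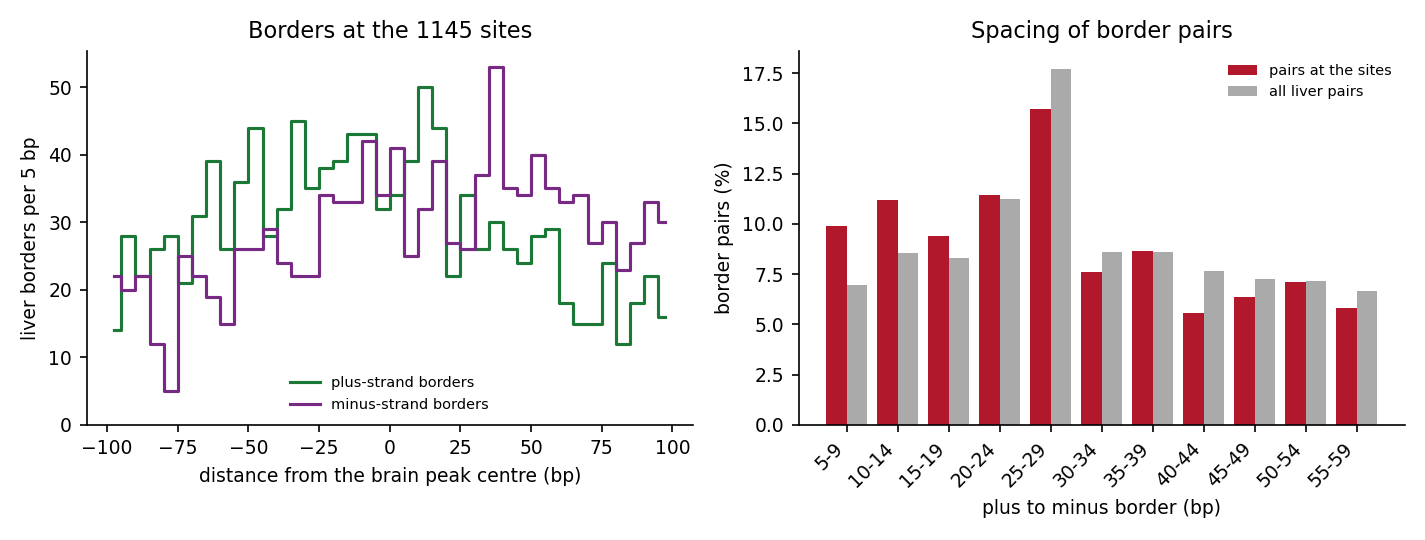
Left, liver borders per 5 bp by distance (bp) from the brain peak centre at the 1145 sites, by strand; plus-strand borders lie at a median of −9 bp and minus-strand borders at 13.5 bp. Right, spacing (bp) of facing border pairs at the sites and over all liver pairs (%), both highest at 25 to 29 bp.

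The strongest sites lay near genes of several functions. The highest score was 174.5 (rank 30 of the brain list) at the Pard6b site, which had 5 borders. A site in an intron of Nhsl1 (chr10:18228511-18228660, nearest start that of Hebp2) and one 8906 bp upstream of Klf11, a Krüppel-like transcription factor (chr12:25327255-25327404), scored 152.7 each. The next site by score, at 145.4 (rank 52), was left out by the naming rule. The Tmed4 site (chr11:6176220-6176369, 1422 bp upstream of this cargo receptor gene) scored 134.5 and held AGGTCA. Of 4 sites at 120, those in introns of Dbi and Rgs6 are printed above. The third was in an intron of Slit3, which encodes an axon guidance ligand (chr11:35097326-35097475), and the fourth was the Tuba3a site, whose strongest border signal was 7.54. At Dbi an eWAT peak was centred 405 bp from the site without overlapping it.

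Further down the ranking, a site 3883 bp upstream of Gpi1, the glucose phosphate isomerase gene (chr7:35019116-35019265, score 116.4), was 97 bp from the start of a gene that does not code for protein and held a GC box. The Rpl30-ps6 site (112.7) had 7 borders, the highest number, shared with 5 other sites. Sites near Mef2d, a neuronal and muscle transcription factor (101.8, 3939 bp upstream), and Chd2, a chromatin remodeller (101.8, 76652 bp upstream), each held a canonical E-box. An intronic site of Prdm16, a regulator of brown fat identity, scored 98.2, with 1 border of signal 0.423 and no eWAT peak centre nearer than 254413 bp.

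Gene by gene, the sites were spread thinly. A start of 540 of 22350 protein-coding genes (2.42%) lay within 10 kb of a site, and 985 genes were the nearest gene of at least 1 site, 124 of them of 2 or more. Of 13 gene lists with 234 genes, 15 genes had a site within 10 kb. Among 23 core clock genes there was 1, Bhlhe40, which encodes a repressor that binds E-boxes. Its site (chr6:108618421-108618570) lay 7628 bp downstream of the start with a score of 47.3 (rank 1166), 2 borders, a strongest signal of 7.65 and 1 AGGTCA; an eWAT peak was centred 6818 bp away. Within 50 kb there were 5 clock genes, Bhlhe40, Cry2, Nr1d1 (the Rev-erbα gene), Per2 and Tef, beside 1967 (8.80%) of all protein-coding genes.

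Lipid and glucose metabolism had 4 of 30 genes within 10 kb, all with intronic sites. Cpt1a, whose enzyme admits fatty acids to mitochondria, had a site at chr19:3325456-3325605 with a score of 25.5, a border signal of 2.79, a canonical E-box and a GC box. The acetyl-CoA carboxylase genes Acaca and Acacb had sites of 29.1 and 21.8, and Fads1, a fatty acid desaturase gene, one of 36.4. Nuclear receptors had 3 of 27: Nr4a3 (61.8, rank 519, 1763 bp upstream), Ppard (36.4) and Rara (21.8, in an intron of Cdc6).

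Heme metabolism had 1 of 10, Hmox1 (heme oxygenase), at 25.5 with 4 borders. Among markers of brain cells, those with a site within 10 kb were 0 of 24 neuronal genes, 1 of 18 of dopamine neurons (Nr4a2, 29.1, 1839 bp upstream of a start), 1 of 14 of astrocytes (Fgfr3, 25.5) and 1 of 14 of oligodendrocytes (Olig1, 21.8). Within 50 kb there were 5 of 14 astrocyte genes (Aldh1l1, Fgfr3, Ndrg2, Slc1a2 and Slc4a4), 2 neuronal, 1 dopamine neuron and 2 oligodendrocyte genes, beside 8.80% of all genes. Among markers of other tissues, 0 of 20 hepatocyte genes had one within 10 kb, 1 of 20 adipocyte genes (Lipe, 29.1) and 0 of 16 of stromal, endothelial and immune cells. For the same lists, 1, 2 and 3 genes had one within 50 kb. These counts are descriptions, to be read beside the 2.42% of all genes within 10 kb and the 8.80% within 50 kb.

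A few genes were nearest to several sites, and 3 of them are described here, chosen after their counts were seen. Irf2bp2, which encodes a transcriptional corepressor, was nearest to 4 intergenic sites between 1414 and 142696 bp upstream, scoring 21.8 to 98.2. Prkag2, a regulatory subunit gene of the AMP-activated kinase, had 4 scoring 32.7 to 54.5, and Zbtb16, a zinc finger transcription factor gene, 4 intronic sites scoring 21.8 to 43.6. Of the 1145 sites, 20 lay in stretches with more than 10 brain peaks within 100 kb, 367 (32.1%) had another brain peak within 10 kb and 227 (19.8%) an eWAT peak centre within 10 kb.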

How the data were processed

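Rev-erbα ChIP-seq of brain (1 library) and eWAT (2), and ChIP-exo of liver (2), were used as the authors' deposited lists, 1 per group. Each peak has the authors' score, of undefined unit, and each border a signal and a p-value, per the file headers. Per the submitters' processing notes, mm9 was used with Bowtie 0.12.8 for ChIP-seq and Bowtie 1.1.1 for ChIP-exo, and HOMER; the roles of these tools, the peak and border callers and whether libraries were pooled were not given in the sources used here. All coordinates fit mm9. A deeper library or another threshold would lengthen the lists and move every share.

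Sites were placed by their central base on GENCODE vM1 (22350 protein-coding genes, 70018 transcript starts, mm9). Introns, exons and intergenic positions were read on protein-coding genes only. The members, lists and motifs were chosen with earlier results of these data known. The 20 motifs were the receptor core AGGTCA, the canonical E-box CACGTG, a further E-box CAGCTG, the GC box GGGCGG, the cAMP response element TGACGTCA, the C/EBP site TTGCNNAA, the ETS site CCGGAAGT, the D-box (TTACGTAA or TTATGTAA), the AP-1 site (TGACTCA or TGAGTCA), the forkhead site (TATTTAC or TGTTTAC) and, by name, the ROR response element, direct repeats of the receptor core with 1, 2 or 4 bases between, and the NF1, HNF1, MEF2, RFX, NRF1 and CTCF sites. The ROR response element contains the core of AGGTCA or GGGTCA, so they overlap. Shares were compared by two-sided Fisher's exact test with conditional odds ratios and exact 95% intervals, and with a flank by the exact McNemar test; p-values were adjusted by Benjamini-Hochberg over 60 motif tests, 13 feature tests and 20 flank tests, threshold 0.05. Wilson intervals cover counting error only.

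Named genes were the nearest genes of the 20 highest-scoring members (1 each), clock genes with a member within 10 kb and up to 4 genes of each other list, leaving out members with more than 10 brain peaks within 100 kb; sequences also left out chromosome 18. All 234 list symbols were matched, 4 by an older symbol. Python 3.11.15, scipy 1.17.1, pandas 2.3.3 and pysam 0.24.0 were used, and the tests were tried on simulated data. The planned comparison of repeats was not run, since the reference sequence does not mark them. Some genes that the naming rule covers are not reported here.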

Additional observations from a re-analysis of the deposited data

How the results depend on the processing

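Membership depended most on the borders and scores: 403 sites had a border with p at or below 0.01 and 684 a score above the brain median. The middle of a border pair lay within 100 bp of the centre at 320 sites, which is the setting with pairs below. Both borders of a pair lay inside 296 sites. Motifs passing against brain sites without a border (8) numbered 2 with the stricter borders, 4 with pairs, 3 in the lower part of the scores and 1 at a GC content under 50%. Those passing against eWAT sites (6) numbered 3, with stricter borders and in the lower part of the scores, and 2 at low GC. Those passing against sites near starts (12) numbered 6 with stricter borders, 0 at low GC and 4 without GC-rich sites, the last added after seeing the data. Fewer sites entered each of these tests.

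Against brain sites without a border, odds ratios turned to 0.920 for CAGCTG with stricter borders, 0.993 for AGGTCA with pairs, 0 for NRF1 in the lower scores and 0 for the cAMP response element at low GC. Against sites near starts they turned to 1.06 for the canonical E-box in the lower scores and 0.915 for C/EBP at low GC. None of these 6 passed, and the cause was not tested. Over 18 alternatives the canonical E-box against brain sites without a border ranged from 1.77 to 4.07 and passed in 17, and the CTCF core from 1.80 to 4.02, passing in 17.

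The intron share against eWAT sites (0.855, not passing) passed at 0.862 with borders within 200 bp, 0.665 with scores above the median and 0.845 without dense stretches, and the intergenic share at 1.45 with scores above the median. Against brain sites without a border the intron and intergenic shares no longer passed with stricter borders (0.809 and 1.23). The coding exon share against eWAT sites no longer passed beyond 5 kb from starts (2.55) or with pairs (1.97). Genes of the lists with a site numbered 15 within 10 kb, 40 within 50 kb (8.80% of all genes) and 31 as nearest gene (4.41%). GC-rich shares passed in all 11 alternatives in both comparisons.

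No paired analysis was possible because each group has 1 deposited list with no values per replicate, and leaving out replicates was not run for the same reason. Depth is unknown, so the absence of an eWAT peak is not absence of binding.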

Other observations

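The letters TTGGCA, which form one arm of the binding site of NFI factors, were searched after short words had been ranked by their frequency near centres and in flanks, so their shares are descriptions with no test. They were present within 50 bp of the centre at 152 of the 1145 sites (13.3%) and in 3.58% of the flanks 1000 bp to the right. At distal brain sites without a liver border the share was 11.8%, at distal eWAT sites with a border and no brain peak 16.0%, and at brain sites near starts with a border 4.38%. Near starts the flanks held them at 4.46%. Liver borders facing the letters at 10 to 15 bp stood at 8.04% of the 199 sites that had them within 75 bp.

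The 27 sites in coding exons held 7 canonical E-boxes (25.9%) and 17 GC-rich windows, and had a median score of 36.4. The 69 sites near starts of genes that do not code for protein held 9 canonical E-boxes (13.0%). The 519 intronic sites held 27 (5.20%), and the 577 intergenic ones 59 (10.2%). These groups were formed by position after the rule, and the differences between them were not tested.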
